A study of Mus musculus with 12 samples.

Results

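The genes described here form the B cell receptor signalling and B cell identity module, 31 named genes out of 55401 in the deposited count table. They were taken by symbol from a fixed list that was chosen with earlier results of these data known. All 31 were found in the table and passed the filter on low counts. The cells came from peritoneal lavage, a wash of the abdominal cavity with 8 mL of buffered saline, in C57BL/6J mice. The 3 groups of 4 libraries were mice injected intraperitoneally with ID8 (defb29/Vegf-a) cells, called ID8, mice injected with the same line carrying the follicle-stimulating hormone receptor (FSHR), called ID8-FSHR, and mice that received no injection, called uninjected. The line ID8 is a mouse ovarian cancer model derived from surface epithelium, and the derivative used carries Defb29, a beta-defensin, and Vegfa, a vascular growth factor, in both tumour groups. Lavage was taken on day 7. The number of injected cells is 4000000 in the series text and 5000000 in the sample protocol. The sources used here give neither sex nor age, nor whether either line is a single clone. As there was no sham injection among the groups, effects of the injection and of the tumour cannot be told apart.

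B cells recognise antigen through a surface immunoglobulin that signals by way of the paired chains CD79A and CD79B. Kinases of the Src family phosphorylate these chains, SYK docks on them, and the adaptor BLNK brings BTK and PLCG2 together, which leads to calcium release and to RAS and NF-kB signalling. Coreceptors such as CD22 and CD72 raise the threshold of the response, while complement receptor CR2 lowers it. PAX5, EBF1, SPIB and POU2AF1 hold the B cell programme in place. The peritoneal cavity is a known site of B1 cells, which live there beside conventional B2 cells and large resident macrophages. Many of the signalling proteins are not limited to B cells, since macrophages also use SYK, LYN, BTK and PLCG2.

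The members were therefore divided by textbook expression into 16 that are largely restricted to B cells, 13 that are shared with myeloid cells, and 2, Ebf1 and Ralgps2, that are shared with other cells. The restricted members were Cd79a, Cd79b, Ms4a1, Cd22, Cr2, Fcer2a, Fcmr, Fcrla, Fcrl1, Fcrl5, Blk, Bank1, Pax5, Spib, Pou2af1 and Vpreb3. The B cell label was met in every library, with Cd79a at 42.6 CPM or more. CPM is the standard depth-scaled read count, computed here after TMM scaling, a trimmed-mean correction between libraries. Exons of 8 members overlap another annotated gene, on the opposite strand for 7 of them (Cd22, Cd37, Cd72, Cd180, Lyn, Pax5 and Swap70) and on the same strand for Pou2f2. The sources used here do not give the strand setting of the counting, so the values of these 8 genes are less certain.

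Promoter sequences were looked up because most members moved together. RefSeq windows on build GRCm38.p6 were found for 27 of the 31 members. Lyn, Ms4a1, Blk and Cd79b had no entry. Cd79a is printed as the gene of the receptor chain, Cr2, Fcer2a, Fcrl1, Fcrl5, Bank1 and Vpreb3 as the restricted genes that were higher against the receptor chains in both tumour groups (values given further on), and Dapp1 as the member with the smallest called difference between ID8 and uninjected. Each run is the 5′ to 3′ sequence on the gene's strand up to the start site, or up to the first annotated exon base where that comes earlier. The Cd79a run thus ends 116 bases before its start site, and that of Fcrl5 ends 9 bases before. Capitals mark matches to 1 of 4 motifs searched on both strands: the octamer ATGCAAAT, the EBF motif (TCCC, any 2 bases, GGGA), the PU.1/Spi-B type motif AGGAAGT, and the E-box CAGGTG bound by E2A type factors. The runs are chr7:24897247-24897380 on the plus strand for Cd79a, chr1:195176720-195176969 (minus) for Cr2, chr8:3690862-3691111 (minus) for Fcer2a, chr3:87376137-87376386 (plus) for Fcrl1, chr3:87435532-87435772 (plus) for Fcrl5, chr3:136326067-136326316 (minus) for Bank1, chr10:75948050-75948299 (plus) for Vpreb3 and chr3:137981550-137981799 (minus) for Dapp1.
Cd79a: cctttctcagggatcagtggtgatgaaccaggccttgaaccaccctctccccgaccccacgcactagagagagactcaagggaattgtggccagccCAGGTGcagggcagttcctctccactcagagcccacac
Cr2: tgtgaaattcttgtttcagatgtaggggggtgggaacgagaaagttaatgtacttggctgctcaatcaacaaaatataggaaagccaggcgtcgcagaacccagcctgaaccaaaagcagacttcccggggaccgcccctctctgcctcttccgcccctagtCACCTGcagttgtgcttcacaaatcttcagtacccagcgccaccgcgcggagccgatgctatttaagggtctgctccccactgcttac
Fcer2a: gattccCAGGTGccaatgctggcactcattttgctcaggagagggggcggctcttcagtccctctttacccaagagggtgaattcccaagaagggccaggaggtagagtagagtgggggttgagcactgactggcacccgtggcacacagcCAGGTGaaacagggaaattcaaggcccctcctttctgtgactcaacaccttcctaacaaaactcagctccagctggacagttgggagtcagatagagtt
Fcrl1: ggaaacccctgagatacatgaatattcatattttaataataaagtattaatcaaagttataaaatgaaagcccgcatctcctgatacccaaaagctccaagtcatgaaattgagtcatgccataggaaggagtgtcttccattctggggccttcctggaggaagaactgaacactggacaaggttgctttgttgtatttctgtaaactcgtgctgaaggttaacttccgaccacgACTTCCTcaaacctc
Fcrl5: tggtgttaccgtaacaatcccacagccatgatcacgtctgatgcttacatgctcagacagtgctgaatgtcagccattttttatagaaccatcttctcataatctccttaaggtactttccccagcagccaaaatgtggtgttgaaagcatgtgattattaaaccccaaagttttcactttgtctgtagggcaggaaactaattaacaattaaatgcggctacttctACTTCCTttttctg
Bank1: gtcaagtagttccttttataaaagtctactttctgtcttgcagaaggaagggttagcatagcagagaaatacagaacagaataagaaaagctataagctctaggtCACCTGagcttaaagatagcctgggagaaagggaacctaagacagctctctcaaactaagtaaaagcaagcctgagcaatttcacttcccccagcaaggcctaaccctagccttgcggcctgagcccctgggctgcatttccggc
Vpreb3: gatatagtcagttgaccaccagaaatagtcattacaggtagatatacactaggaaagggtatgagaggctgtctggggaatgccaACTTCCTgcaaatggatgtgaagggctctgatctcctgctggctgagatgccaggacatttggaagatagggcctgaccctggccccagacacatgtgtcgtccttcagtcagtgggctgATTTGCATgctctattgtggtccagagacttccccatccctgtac
Dapp1: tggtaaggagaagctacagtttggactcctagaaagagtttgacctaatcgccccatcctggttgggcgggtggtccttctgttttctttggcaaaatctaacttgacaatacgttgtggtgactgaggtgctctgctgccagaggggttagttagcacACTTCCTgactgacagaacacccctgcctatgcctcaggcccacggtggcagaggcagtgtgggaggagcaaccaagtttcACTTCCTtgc

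Across the 34 windows of these 27 genes, the E-box was present in 13 windows of 12 genes, against 17.2% of all 32851 RefSeq windows of the same length. The PU.1/Spi-B type motif was in 9 windows of 9 genes, against 7.69% of all windows. Cd79a is among these genes, with the match 55 to 49 bases before its start, past the end of the printed run. The octamer, the motif bound by the POU2F2 and POU2AF1 complex, was in the windows of Blnk and Vpreb3 (1.601% of all windows), and the EBF motif was in that of Cd22 (0.779%). No matches overlapped. A match describes letters in the window and does not show binding. Among the printed runs, Fcer2a holds the E-box at 2 places (its other windows, not printed, hold none of the 4 motifs), Dapp1 holds the PU.1/Spi-B type motif at 2 places, and Vpreb3 holds an octamer and a PU.1/Spi-B type match.

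Before the members, the state of the libraries is given once. Total counts were 50327658 to 57991979 in uninjected, 47419608 to 64333677 in ID8 and 48355885 to 57636459 in ID8-FSHR. The summed level of 8 tumour and mesothelial genes was 18.3 to 21.2 CPM in uninjected, 3231 to 4123 CPM in ID8 and 1197 to 2948 CPM in ID8-FSHR. ID8-FSHR replicate 2 stood apart, with the 1197 CPM of that sum (the other 3 libraries had 2506 to 2948) and the highest sum of 10 pan-leukocyte genes among the tumour libraries, 4453 CPM against 2517 to 2996 in the other 7. Fshr was at 0 to 0.128 CPM in all 12 libraries and did not pass the filter, so it does not check the FSHR label, whereas Defb29 was 0 in uninjected and 8.41 to 29.1 CPM in the tumour libraries. The submitters call the libraries of a group biological replicates.

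Almost every member of the module was lower, after TMM scaling, in the lavage RNA of tumour-injected mice. Among members that passed the test, the difference ran from 1.66-fold for the adaptor Dapp1 to 10.0-fold for the kinase Blk in ID8, and from 1.68-fold for the kinase Lyn to 12.4-fold for Blk in ID8-FSHR. In ID8 against uninjected, 30 of 31 members were lower, none was higher and Vpreb3 did not pass the test (edgeR, adjusted p under 0.05). Over all 16915 tested genes 31.4% were lower and 32.7% higher. The median log2 fold change of the members was -2.13, beside -0.03 for all genes, and in 28 members the highest ID8 library lay below the lowest uninjected library (30.7% of all genes were lower without overlap). In ID8-FSHR against uninjected, 28 of 31 members were lower, none was higher, and Cd72, Pik3ap1 and Vpreb3 did not pass, against 30.6% of all genes lower and 33.9% higher. Here the median was -2.33, beside 0.00 for all genes, and 28 members were lower without overlap (27.4% of all genes). Without ID8-FSHR replicate 2 the counts were again 30 and 28, and at an adjusted p under 0.01 (edgeR) they were 29 and 28, beside 24.6% and 23.7% of all genes. Both comparisons use the same 4 uninjected libraries. Fewer B cells and less RNA per B cell cannot be told apart in bulk samples. The part of added tumour RNA in these scaled values was not tested in this fit.

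**Figure D1:**
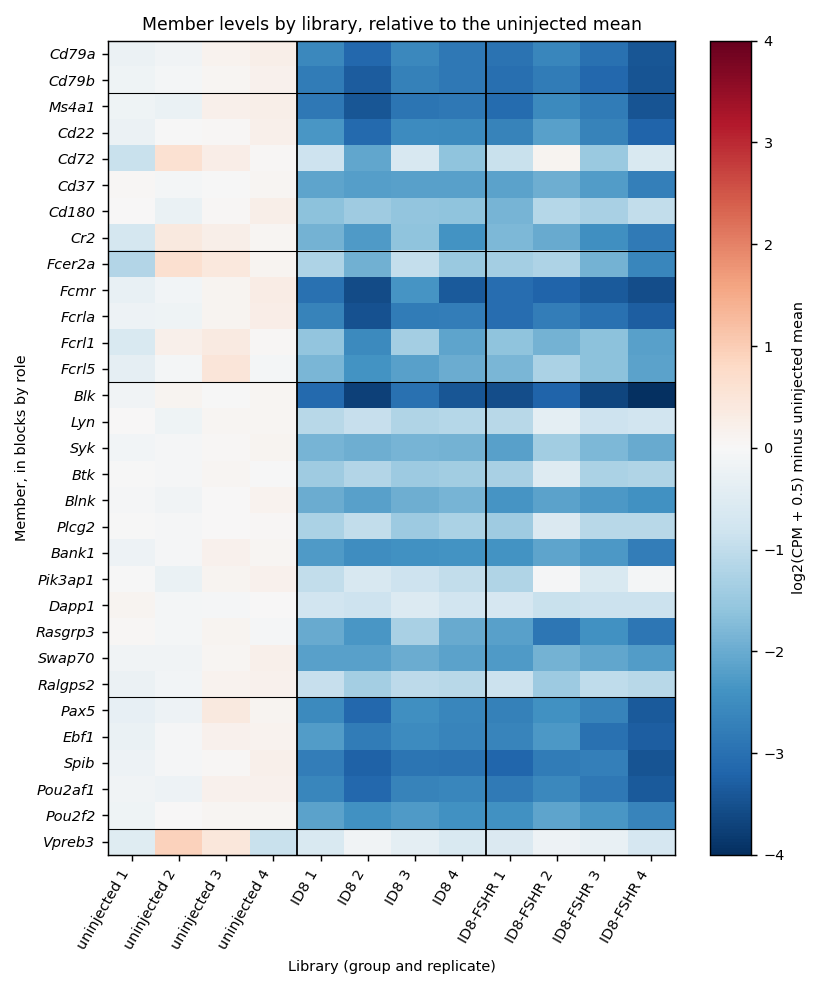
Level of each of the 31 members (rows, in blocks by role) in each of the 12 libraries (columns), as log2(CPM + 0.5) relative to the average of the 4 uninjected libraries. Blue is below and red above that mean: nearly all tumour columns are blue, with the palest rows at Dapp1, Pik3ap1, Cd72 and Vpreb3, and uninjected replicate 1 is paler blue for Fcer2a, Cr2, Fcrl1 and Cd72.

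The antigen receptor chains were low in every tumour library. Cd79a (ENSMUSG00000003379.7, chr7:24897381-24902197, plus strand, 5 exons, in GENCODE M21 on GRCm38 as for all genes below) was at 391, 423, 509.9 and 545 CPM in the uninjected replicates 1 to 4, at 76.3, 51.9, 77.5 and 63.5 CPM in ID8 and at 59.98, 75.4, 58.5 and 42.6 CPM in ID8-FSHR. The tumour libraries lay well below every uninjected library and overlapped each other. Cd79a was 6.94-fold lower in ID8 and 7.90-fold lower in ID8-FSHR, with log2 fold changes of -2.80 (SE 0.18) in ID8 and -2.98 (SE 0.18) in ID8-FSHR (edgeR, adjusted p = 4.02e-08 and 2.71e-08). Cd79b, its partner (ENSMUSG00000040592.11, chr11:106311341-106314762, minus strand, 6 exons), was at 380.5, 411, 449 and 488 CPM in uninjected, 61.9, 42.6, 65.0 and 58.5 CPM in ID8 and 53.0, 61.1, 48.2 and 39.0 CPM in ID8-FSHR. It was 7.58-fold and 8.58-fold lower (edgeR, adjusted p = 8.04e-09 and 6.35e-09). The 2 chains kept nearly the same proportion, with Cd79a making up 51.8 ± 1.29% (SD, n = 4) of their summed reads in uninjected, 54.1 ± 1.43% in ID8 and 53.8 ± 1.41% in ID8-FSHR.

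Among the surface coreceptors and regulators, Ms4a1, Cd22, Cr2, Cd37 and Cd180 were lower in both tumour groups without overlap. Ms4a1, which encodes CD20, was at 691, 636, 890.1 and 902 CPM in uninjected, 105, 72.2, 102 and 105 CPM in ID8 and 90.8, 132, 109.7 and 70.02 CPM in ID8-FSHR. It was 8.14-fold lower in ID8 and 7.76-fold lower in ID8-FSHR (edgeR, adjusted p = 4.68e-08 and 5.81e-08). Cd22, an inhibitory lectin of the receptor complex, fell from 312 ± 38.0 CPM (mean ± SD, n = 4) to 50.6 ± 10.6 and 49.7 ± 14.2 CPM, and its tumour libraries spanned 33.6 to 68.3 CPM. Cd37, a tetraspanin that macrophages also express, was tight within ID8 at 110.3, 104, 106 and 105 CPM, against 489, 452, 473 and 501 CPM in uninjected, a 4.50-fold difference. Cd180, a Toll-like receptor homologue of B cells and macrophages, fell less, from 270.1 ± 37.3 CPM to 90.1 ± 6.47 (ID8) and 109 ± 26.6 CPM (ID8-FSHR). Those are log2 fold changes of -1.58 and -1.31.

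Cr2 and Cd72 varied more within groups. Cr2, the complement receptor CD21, was at 22.2, 48.2, 43.2 and 38.2 CPM in uninjected, 9.43, 7.26, 11.6 and 6.58 CPM in ID8 and 10.1, 8.71, 6.19 and 4.65 CPM in ID8-FSHR. Uninjected replicate 1 was the lowest of its group and still above all tumour libraries, and the differences were 4.35-fold and 5.12-fold (edgeR, adjusted p = 2.42e-05 and 1.05e-05). Cd72, an inhibitory receptor, was at 4.56, 13.9, 10.8 and 9.19 CPM in uninjected, 4.80, 1.75, 5.58 and 2.57 CPM in ID8 and 4.65, 9.61, 2.90 and 5.68 CPM in ID8-FSHR. The groups overlapped in both comparisons. Cd72 passed the test in ID8 (log2 fold change -1.39, SE 0.44, edgeR adjusted p = 0.0138) and not in ID8-FSHR (-0.76, SE 0.43, edgeR adjusted p = 0.14). The direct comparison of the tumour groups gave 0.63 (SE 0.43, edgeR adjusted p = 0.362), so a difference between them was not shown.

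The Fc receptor and Fc receptor-like genes included both some of the largest and some of the smaller differences. Fcmr, the receptor for the constant part of IgM, was at 134, 153, 177 and 204 CPM in uninjected, 20.6, 13.4, 31.6 and 15.7 CPM in ID8 and 19.7, 17.3, 15.7 and 13.7 CPM in ID8-FSHR. It was 8.22-fold and 10.1-fold lower (edgeR, adjusted p = 2.29e-07 and 1.19e-07), second only to Blk among the members in both comparisons. Fcrla, an intracellular Fc receptor-like protein, fell from 115 ± 18.9 to 14.8 ± 3.504 and 13.7 ± 2.12 CPM, which is 7.74-fold and 8.38-fold. Fcrl1 fell from 23.1 ± 6.26 to 5.93 ± 2.25 and 6.03 ± 1.15 CPM, and Fcrl5, which is high on B1 and marginal zone B cells, from 56.3 ± 14.9 to 12.7 ± 2.28 and 16.8 ± 4.56 CPM. Those 2 genes were 3.89-fold and 4.43-fold lower in ID8 and 3.82-fold and 3.36-fold lower in ID8-FSHR, and none of their tumour libraries reached the uninjected range.

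Fcer2a, the low-affinity IgE receptor CD23 that marks conventional B2 rather than B1 cells (ENSMUSG00000005540.10, chr8:3681737-3694175, minus strand), was at 14.7, 52.3, 44.9 and 36.4 CPM in uninjected, 13.8, 8.43, 17.1 and 11.8 CPM in ID8 and 12.9, 13.8, 8.61 and 5.11 CPM in ID8-FSHR. Uninjected replicate 1 lay within the ID8 range and just above the ID8-FSHR range. Fcer2a was 2.90-fold lower in ID8 (edgeR, adjusted p = 0.00314) and 3.66-fold lower in ID8-FSHR (edgeR, adjusted p = 0.00083), and both calls held when each library was left out in turn. The low Fcer2a, Cr2, Fcrl1 and Cd72 of uninjected replicate 1 went with the lowest sum of 9 T cell genes in that group, 53.8 CPM against 89.4 to 161 CPM in the other 3 libraries. Its part in these values was not tested.

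The kinases and adaptors of the receptor follow, first those restricted to B cells. Blk, the Src family kinase of B cells (ENSMUSG00000014453.4, chr14:63372836-63417037, minus strand, 13 exons), had the largest difference of all members. It was at 164, 195, 178 and 193 CPM in uninjected, 20.6, 13.2, 22.5 and 16.5 CPM in ID8 and 15.2, 19.3, 13.9 and 10.6 CPM in ID8-FSHR, with log2 fold changes of -3.33 (SE 0.19) in ID8 and -3.63 (SE 0.20) in ID8-FSHR (edgeR, adjusted p = 1.33e-08 and 8.68e-09). Bank1, a B cell scaffold with ankyrin repeats, was at 350.1, 389, 447 and 419 CPM in uninjected, 83.3, 71.5, 74.5 and 75.7 CPM in ID8 and 75.7, 92.0, 81.6 and 58.2 CPM in ID8-FSHR. The fall of Bank1 was 5.27-fold and 5.22-fold, with log2 fold changes of -2.40 (SE 0.13) in ID8 and -2.38 (SE 0.13) in ID8-FSHR.

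Lyn, a Src family kinase shared by B and myeloid cells, was at 503, 446, 526 and 535 CPM in uninjected, 232, 262, 216 and 225 CPM in ID8 and 234, 386, 284 and 294 CPM in ID8-FSHR. It was 2.15-fold and 1.68-fold lower (edgeR, adjusted p = 7.8e-06 and 0.00022), a far smaller fold than that of Blk. Syk was at 1011, 1054, 1118 and 1186 CPM in uninjected, 299, 283, 299 and 296 CPM in ID8 and 240.1, 419.7, 316 and 269 CPM in ID8-FSHR, and was 3.71-fold and 3.51-fold lower. Btk, the Tec kinase, fell from 142 ± 4.75 to 55.1 ± 5.15 and 69.4 ± 20.3 CPM, and Plcg2, the phospholipase it activates, from 323 ± 8.81 to 137 ± 19.9 and 159 ± 41.4 CPM. In ID8-FSHR replicate 2, the library with the most leukocyte RNA among the tumour libraries, Lyn, Syk, Btk and Plcg2 were the highest of their group at 386, 419.7, 99.8 and 218 CPM. All 4 calls held without that library.

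Of the adaptors, Blnk fell from 106 ± 8.86 to 26.2 ± 2.52 (ID8) and 21.0 ± 2.01 CPM (ID8-FSHR), 4.03-fold and 5.02-fold, with the smallest adjusted p-values of the 31 members (edgeR, 2.69e-09 and 1.68e-09). Swap70, a guanine exchange factor for RAC, fell from 219 ± 27.2 to 49.9 ± 2.93 and 50.2 ± 6.36 CPM. Rasgrp3, which activates RAS and RAP1 downstream of diacylglycerol, was at 131, 121, 138 and 124 CPM in uninjected, 31.6, 25.2, 51.6 and 31.1 CPM in ID8 and 27.9, 17.1, 23.7 and 16.7 CPM in ID8-FSHR. Its tumour libraries were all at or below 51.6 CPM, less than the lowest uninjected library at 121 CPM. Ralgps2, an exchange factor for RAL, fell from 172 ± 23.8 to 79.3 ± 9.35 and 79.6 ± 13.6 CPM, about the same 2.17-fold and 2.16-fold in both groups.

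The PI3K-linked adaptors had the smallest fold changes among the called members in ID8, but not in ID8-FSHR. Dapp1, an adaptor that binds PI3K lipids (ENSMUSG00000028159.14, chr3:137931007-137981545, minus strand), was at 148, 128, 131 and 139 CPM in uninjected, 80.5, 76.6, 92.6 and 79.3 CPM in ID8 and 85.5, 73.9, 74.1 and 75.1 CPM in ID8-FSHR. It fell 1.66-fold and 1.77-fold, without overlap, and the small spread gave an edgeR adjusted p of 3.26e-06 and 1.09e-06. Pik3ap1, known as BCAP and also used by macrophages, was at 106, 88.7, 116 and 122 CPM in uninjected, 53.9, 68.3, 60.1 and 53.8 CPM in ID8 and 46.6, 104, 70.7 and 101 CPM in ID8-FSHR. It was 1.83-fold lower in ID8 (edgeR, adjusted p = 0.00244), while ID8-FSHR replicates 2 and 4 reached the uninjected range and the ID8-FSHR difference did not pass (-0.43, SE 0.21, edgeR adjusted p = 0.087). Without ID8-FSHR replicate 4 it passed, at -0.55 (edgeR, adjusted p = 0.0435).

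All 5 transcription factors of the module were lower in both tumour groups without overlap. Pax5, the commitment factor of the B lineage, was at 303, 331, 499 and 409 CPM in uninjected, 65.0, 42.0, 68.4 and 61.5 CPM in ID8 and 57.6, 70.9, 58.6 and 36.2 CPM in ID8-FSHR, 6.51-fold and 6.91-fold lower (edgeR, adjusted p = 3.24e-07 and 2.58e-07). Spib, an ETS factor, fell from 221 ± 25.9 to 27.8 ± 3.75 and 27.0 ± 6.17 CPM, 7.94-fold and 8.18-fold. Pou2af1, the coactivator OCA-B, fell from 323 ± 43.9 to 47.3 ± 7.85 and 43.2 ± 9.46 CPM. Its partner Pou2f2, or OCT2, fell from 298 ± 23.0 to 59.7 ± 5.76 and 57.2 ± 8.59 CPM, which at 5.00-fold and 5.22-fold was the largest fall among the myeloid-shared members in ID8. Ebf1 fell from 103 ± 14.6 to 17.3 ± 3.03 and 14.7 ± 4.51 CPM, 5.97-fold and 7.00-fold. Of 12 other transcription factors of the B lineage, all 12 were lower in both comparisons, with median log2 fold changes of -1.63 and -1.47, beside 31.4% and 30.6% of all genes lower. Relative to pan-leukocyte genes, a rescaling described below, 6 of the 12 were lower and 2 higher in ID8 (median -0.43). Of all genes, 4.26% were lower and 75.5% higher there (median 1.17). In ID8-FSHR 9 were lower and none higher (median -0.55), beside 6.28% and 69.2% of all genes (median 0.94). Ikzf1, on this list, is also a reference gene of that rescaling. Unlike the members, the 12 factors were not divided by whether other cells share them.

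Vpreb3, a protein of the pre-B cell receptor complex, was the least abundant member and the only restricted one that did not pass in either comparison. It was at 0.572, 2.32, 1.56 and 0.305 CPM in uninjected, 0.474, 0.847, 0.637 and 0.490 CPM in ID8 and 0.506, 0.796, 0.721 and 0.438 CPM in ID8-FSHR, with as few as 14 counts in a library. The uninjected libraries spread 7.62-fold and covered all tumour libraries. The log2 fold changes were -0.97 (SE 0.52, edgeR adjusted p = 0.12) and -0.96 (SE 0.52, edgeR adjusted p = 0.123). Both passed once uninjected replicate 4, the lowest, was left out (-1.28 and -1.27, edgeR adjusted p = 0.0235 and 0.0243).

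**Figure D2:**
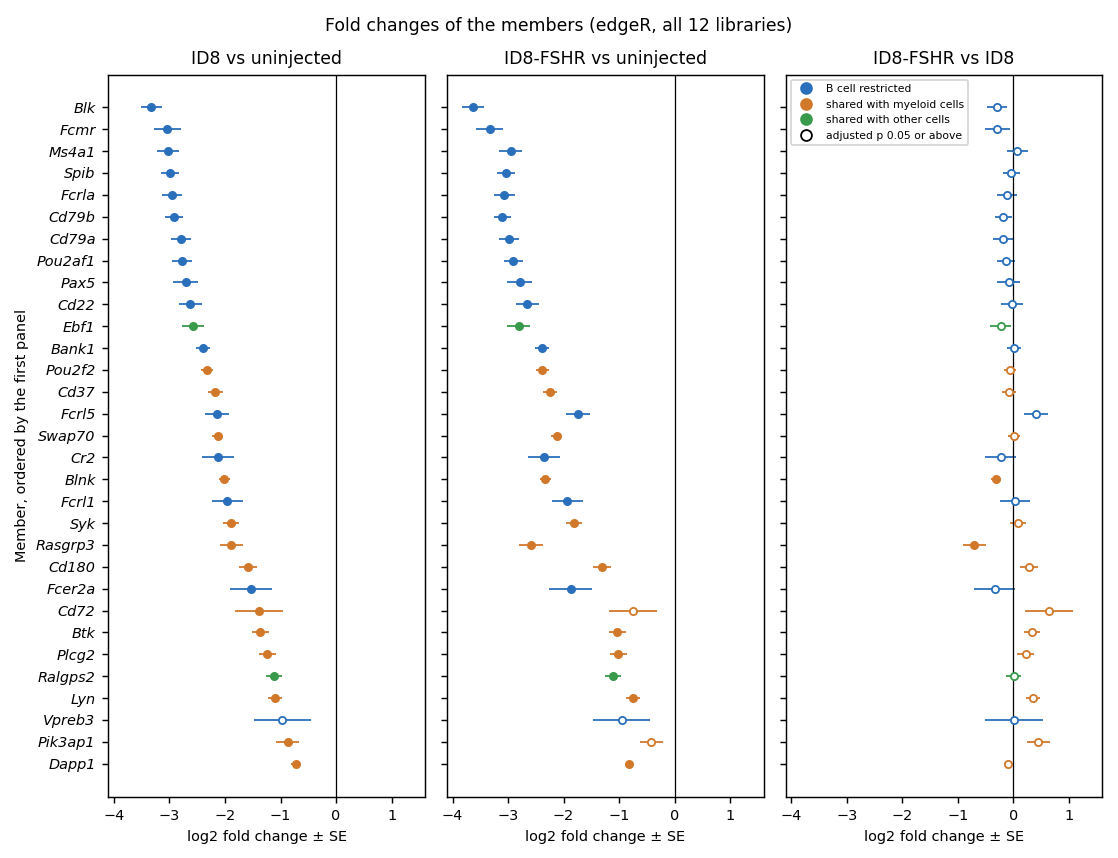
Log2 fold change with its SE (x axis) of each member (y axis, ordered by ID8 against uninjected) in the 3 comparisons, from the edgeR fit of all 12 libraries. Colours give the class, and open circles did not pass at an adjusted p of 0.05: in the first panel restricted members (blue) span -3.33 to -0.97 and members shared with myeloid cells (orange) -2.32 to -0.73, and the third panel stays between -0.71 and 0.63.

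By class, 15 of 16 restricted members were lower in each tumour group, with medians of -2.74 in ID8 and -2.85 in ID8-FSHR. Of the 13 members shared with myeloid cells, 13 were lower in ID8 (median -1.58, from -2.32 for Pou2f2 to -0.73 for Dapp1) and 11 in ID8-FSHR (median -1.31). Both classes thus stood below the all-gene medians of -0.03 and 0.00. The difference between the classes was not tested. Summed over the class, the restricted members fell from 3943 ± 539 CPM (SD, n = 4) in uninjected to 575 ± 94.0 (ID8) and 549 ± 122 CPM (ID8-FSHR), ratios of 6.85 and 7.19. The sum of the shared members was 3814 ± 230.1, 1232 ± 30.9 and 1363 ± 256 CPM, ratios of 3.10 and 2.80.

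Marker sums of other cells moved as well. The 10 pan-leukocyte genes summed to 5896 to 6230 CPM in uninjected, 2517 to 2996 CPM in ID8 and 2769 to 4453 CPM in ID8-FSHR, and the ratio of the means was 2.29 and 1.86. The 14 macrophage genes summed to 24332 to 30686 CPM, 11031 to 13373 CPM and 8639 to 11302 CPM, ratios of 2.24 and 2.66. These genes did not all move alike. In ID8, 11 of them were lower and 2 higher, with a median log2 fold change of -0.78. In ID8-FSHR, 9 were lower and 3 higher (median -0.57). Of all genes, 31.4% and 30.6% were lower and 32.7% and 33.9% higher. The restricted B cell sum had a larger ratio than the pan-leukocyte and macrophage sums, and the sum of the shared members lay between. Sums of 9 T cell genes were 53.8 to 161 CPM, 45.0 to 53.4 CPM and 69.6 to 149.9 CPM, and those of 7 plasma cell genes were 207 to 212 CPM, 259 to 302 CPM and 199.7 to 234 CPM. Genes of the plasma cell list moved in opposite directions, with 3 lower and 3 higher of 6 tested in ID8 and 3 lower and 1 higher in ID8-FSHR. Most of its sum was Xbp1, a secretory pathway factor of many cell types, at 162 ± 11.3, 201 ± 21.4 and 160.0 ± 15.7 CPM, and Sdc1, a syndecan also found on epithelial cells, rose from 16.5 ± 5.60 to 66.3 ± 6.64 and 51.5 ± 10.2 CPM. The antibody joining chain Jchain fell from 5.83 ± 2.75 to 1.00 ± 0.581 and 0.920 ± 0.555 CPM. Mzb1, a chaperone of antibody secretion, fell from 15.1 ± 2.38 to 1.37 ± 0.516 and 1.37 ± 0.157 CPM, and Prdm1 from 8.63 ± 2.61 to 2.42 ± 0.916 and 4.88 ± 2.04 CPM. Derl3 rose from 2.36 ± 0.861 to 6.31 ± 1.35 CPM in ID8 and was at 0.993 ± 0.436 CPM in ID8-FSHR. Tnfrsf17 did not pass the filter. These genes were picked out after their values were seen. No gene of these lists was at 0 in every library of a group. The part of macrophages in the shared members' values was not tested.

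**Figure D3:**
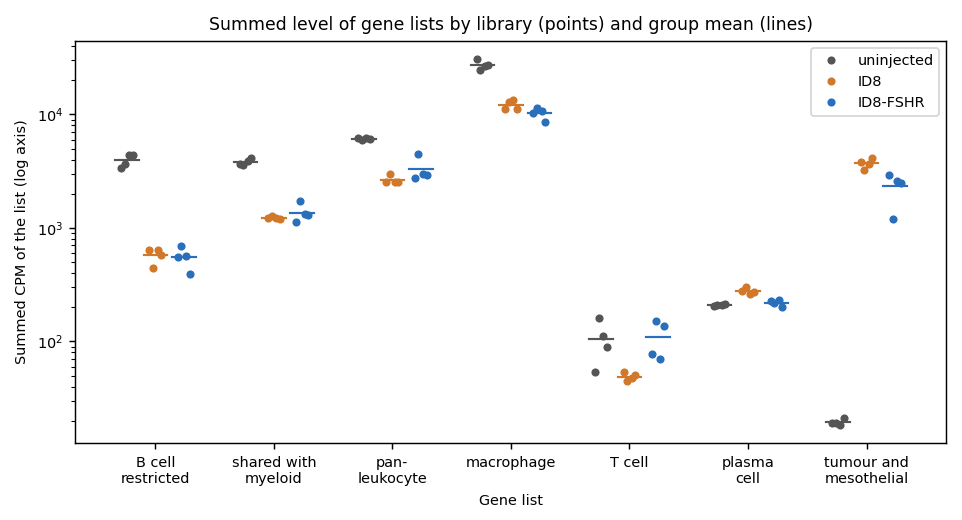
Summed CPM (log axis) of 7 gene lists in each library (points) with the group mean (line), coloured by group. The restricted B cell sum drops from 3943 to 575 and 549 CPM, the pan-leukocyte sum from 6074 to 2653 and 3274 CPM, and the tumour and mesothelial sum rises from 19.5 to 3703 and 2314 CPM.

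To ask whether B cell transcripts were also fewer per leukocyte transcript, the counts were rescaled by the summed counts of the 10 pan-leukocyte genes. Of these, Ikzf1 is also on the list of other B lineage factors, and Ptprc and Rac2 on that of other pathway genes. Pan-leukocyte genes include RNA of B cells, so less B cell RNA lowers this reference too. The size of that part was not tested. Laptm5 had the highest level of the 10 genes, at a mean of 2059 of 6074 CPM in uninjected. In ID8 it was 1125 of 2653 CPM and in ID8-FSHR 1241 of 3274 CPM. The part of Laptm5 in the rescaled values was not tested. This rescaling moved the median of all genes to 1.17 in ID8 and 0.94 in ID8-FSHR, so fold changes are read against it. Relative to leukocyte genes, 22 of 31 members were lower in ID8, 1 was higher and 8 did not pass, beside 4.26% of all genes lower and 75.5% higher. In ID8-FSHR, 23 were lower, 1 was higher and 7 did not pass, beside 6.28% of all genes lower and 69.2% higher. The members' medians were -0.93 and -1.40. Without ID8-FSHR replicate 2, 22 members were lower and 2 higher in ID8-FSHR.

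Of the restricted members, 14 of 16 were lower relative to leukocyte genes in ID8 (median -1.52) and 15 of 16 in ID8-FSHR. Blk was again lowest, at -2.11 (SE 0.20) and -2.73 (SE 0.20). Cd79a was at -1.58 and -2.08 and Spib at -1.78 and -2.12 (edgeR, adjusted p = 1.16e-06, 1.24e-07, 3.5e-07 and 9.73e-08). Among the 13 shared members 7 were lower in each tumour group. Syk, the receptor-proximal kinase, was still lower, at -0.69 and -0.92, as were Pou2f2 (-1.12 and -1.47) and Swap70 (-0.93 and -1.21). Lyn, Btk, Plcg2 and Cd72 passed in neither group. Dapp1 was higher in ID8 (0.48, SE 0.17, edgeR adjusted p = 0.0152) and Pik3ap1 in ID8-FSHR (0.47, SE 0.18, edgeR adjusted p = 0.0247). Each thus has the opposite sign under this scaling from its CPM, and each is below the all-gene median. Cd180 was close to the threshold in both groups (edgeR, adjusted p = 0.0437 and 0.049), as were Fcrl1 and Rasgrp3 in ID8 (edgeR, adjusted p = 0.0472 and 0.041) and Fcer2a in ID8-FSHR (edgeR, adjusted p = 0.0333). With 1 library left out, the Cd180 value ranged from -0.46 to -0.30 in ID8, where the call held without ID8-FSHR replicate 1, 2 or 4 or uninjected replicate 2 and was lost without any other library, and from -0.57 to -0.28 in ID8-FSHR, where it held without ID8-FSHR replicate 4 or uninjected replicate 2 alone. Fcrl1 ranged from -0.96 to -0.51 in ID8, and the call held without ID8 replicate 1 or 3, ID8-FSHR replicate 1 or uninjected replicate 1 and was lost otherwise. Rasgrp3 ranged from -0.95 to -0.49 in ID8, and the call was lost without ID8 replicate 1, 2 or 4 or any uninjected library. Fcer2a ranged from -1.25 to -0.75 in ID8-FSHR, and it missed the threshold when ID8-FSHR replicate 2, 3 or 4 or uninjected replicate 2 or 3 was left out. With Ptprc alone as the reference, Cd180 (-0.17), Fcrl1 (-0.51), Rasgrp3 (-0.45) and Cr2 (-0.67) were not called in ID8, nor was Fcer2a in ID8-FSHR (-0.87). The Dapp1 call was lost without ID8 replicate 3 (0.39), and the Pik3ap1 call without ID8-FSHR replicate 4 (0.26) or uninjected replicate 1 (0.46) or 2 (0.40).

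A further rescaling by the summed reads of Cd79a and Cd79b asked whether the other 14 restricted members kept their proportion to the receptor chains. This moved the all-gene median to 2.85 and 3.06. In both tumour groups the same 6 genes, Cr2, Fcer2a, Fcrl1, Fcrl5, Bank1 and Vpreb3, were higher than in uninjected relative to the chains, 1 gene, Blk, was lower, and 7 did not pass. Of all genes, 94.3% were higher and 0.189% lower in ID8, and 94.7% higher and 0.248% lower in ID8-FSHR. The 2 sets of results share their uninjected libraries. Apart from Bank1, the 6 higher genes were the least abundant restricted members in uninjected, with means of 56.3 CPM or less. The next was Fcrla at 115 CPM. The part of a gene's level in these results was not tested.

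Blk had 21.3, 23.4, 18.6 and 18.7 reads per 100 Cd79 reads in the uninjected libraries, 14.9, 14.0, 15.8 and 13.5 in ID8 and 13.5, 14.1, 13.1 and 12.9 in ID8-FSHR. No tumour library reached the uninjected range. The log2 fold change relative to the chains was -0.49 (SE 0.21, edgeR adjusted p = 0.0246) in ID8 and -0.61 (SE 0.21, edgeR adjusted p = 0.00608) in ID8-FSHR. The ID8 call was lost without ID8 replicate 4 or without uninjected replicate 1 or 2, and also when Ms4a1, Pax5, Pou2af1 and Spib served as the reference (-0.47, edgeR adjusted p = 0.0704). The ID8-FSHR call held in each of these settings.

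Bank1 was higher against the chains, with 45.4, 46.7, 46.6 and 40.6 reads per 100 Cd79 reads in uninjected, 60.3, 75.7, 52.3 and 62.0 in ID8 and 67.1, 67.4, 76.5 and 71.4 in ID8-FSHR, again without overlap with uninjected. Its log2 fold changes were 0.48 and 0.65 (edgeR, adjusted p = 0.0242 and 0.00272), and the ID8 call was lost without ID8 replicate 4 or uninjected replicate 4. Fcrl5 had 5.59, 6.23, 8.09 and 5.07 reads per 100 in uninjected, 11.05, 10.6, 8.24 and 11.2 in ID8 and 13.3, 16.7, 16.1 and 14.7 in ID8-FSHR. All tumour libraries were above uninjected and the ID8-FSHR libraries were above all ID8 libraries, but the direct test between the tumour groups did not pass (0.56, SE 0.23, edgeR adjusted p = 0.178). Fcer2a had 1.91, 6.27, 4.68 and 3.53 reads per 100 in uninjected, 10.0, 8.92, 12.03 and 9.67 in ID8 and 11.4, 10.1, 8.07 and 6.26 in ID8-FSHR, with log2 fold changes of 1.31 and 1.13 (edgeR, adjusted p = 3.8e-05 and 0.000238). ID8-FSHR replicate 4 lay just below uninjected replicate 2, so those groups overlapped, while ID8 lay above uninjected throughout.

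Fcrl1 rose from 2.56 ± 0.603 reads per 100 Cd79 reads (SD, n = 4) to 4.64 ± 1.07 and 5.61 ± 1.06, and Cr2 from 4.21 ± 1.24 to 7.01 ± 1.205 and 6.70 ± 1.51. The Cr2 call in ID8-FSHR was lost without ID8-FSHR replicate 1 (0.50) or uninjected replicate 1 (0.52), and with Ms4a1, Pax5, Pou2af1 and Spib as the reference (0.55). Vpreb3 had well under 1 read per 100 in every group, 0.136 ± 0.110, 0.522 ± 0.253 and 0.561 ± 0.0947, with log2 fold changes of 1.91 and 2.03. The 7 members that did not pass included Ms4a1 at 86.5 ± 7.16, 77.4 ± 6.18 and 91.4 ± 10.1 reads per 100, Spib at 24.6 ± 0.676, 22.5 ± 1.61 and 24.8 ± 4.11, and Pou2af1 at 36.0 ± 1.96, 38.2 ± 3.21 and 39.4 ± 1.34. The other 4 were Cd22, Fcmr, Fcrla and Pax5. Whether reads of these genes from cells other than B cells enter the ratios was not tested.

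**Figure D4:**
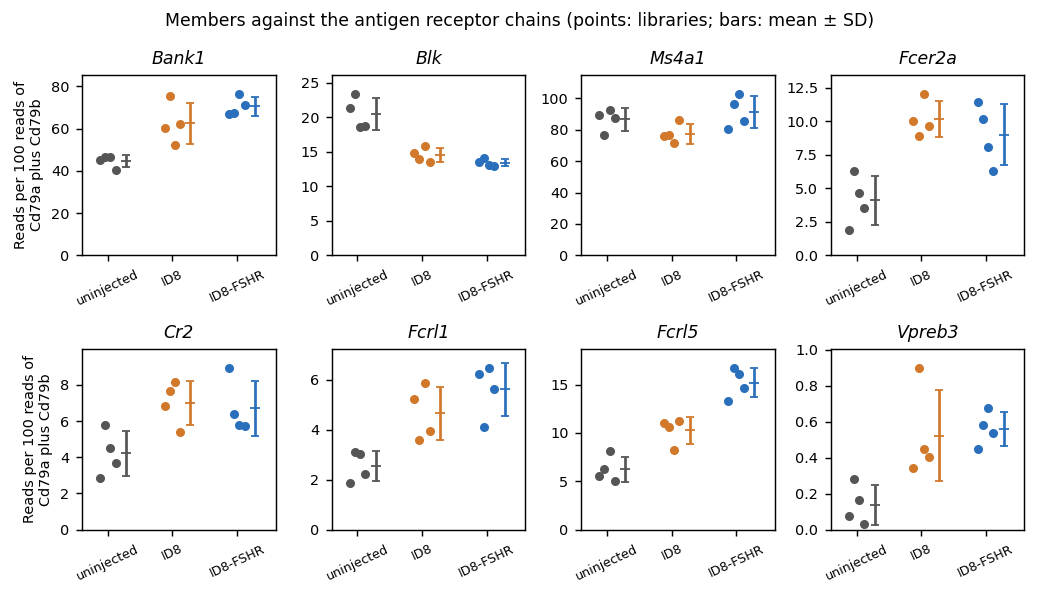
Reads of 8 restricted members per 100 reads of Cd79a plus Cd79b (y axis, from 0) in each library (points) of the 3 groups (x axis), with mean ± SD bars. Blk falls from 20.5 to 14.5 and 13.4, Bank1 rises from 44.8 to 62.6 and 70.6, Fcrl5 from 6.25 to 10.3 and 15.2, and the Ms4a1 points of the groups overlap.

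Few members passed the test between the tumour groups. In ID8-FSHR against ID8, 2 of 31 members were lower, none was higher and 29 did not pass (edgeR, adjusted p under 0.05), beside 5.56% of all genes lower and 6.04% higher, a share near that background. None of the 31 was without overlap, beside 18.5% of all genes. The median was -0.04 and the range -0.71 to 0.63. None of the 16 restricted members passed, and at an adjusted p under 0.01 (edgeR) no member was lower, beside 1.65% of all genes. For Cd79a the difference was -0.19 (SE 0.17), for Blk -0.30 (SE 0.18) and for Fcrl5 0.40 (SE 0.21), so differences of that size could not be told from 0 with these libraries.

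The 2 lower genes were Rasgrp3 (log2 fold change -0.71, SE 0.21, edgeR adjusted p = 0.0454) and Blnk (-0.32, SE 0.09, edgeR adjusted p = 0.0425). Blnk was at 26.2, 22.9, 27.0 and 28.9 CPM in ID8 and 20.04, 23.8, 21.2 and 19.1 CPM in ID8-FSHR, where ID8 replicate 2 lay below ID8-FSHR replicate 2. For Rasgrp3, ID8 replicate 3 at 51.6 CPM was far above the other ID8 libraries (25.2 to 31.6 CPM), and without it the difference was -0.46 (edgeR, adjusted p = 0.128). Neither call was stable. With 1 library left out, the Rasgrp3 value ranged from -0.86 to -0.46, and it was called without ID8 replicate 2 or ID8-FSHR replicate 1 but lost without any of the other 10 libraries. Blnk ranged from -0.38 to -0.27, and it was called without replicate 2 of any group or without uninjected replicate 4 but lost without any of the other 8. Both calls were also lost in a fit of only the tumour groups (-0.69 and -0.301) and without the filter on low counts (-0.71 and -0.32). Conversely Cd180, Lyn and Pik3ap1 were called higher without ID8-FSHR replicate 1 (0.43, 0.46 and 0.64, edgeR adjusted p = 0.0213, 0.0162 and 0.0113). Relative to the pan-leukocyte genes, 1 member, Blnk, was lower (-0.60, edgeR adjusted p = 0.0278), beside 4.53% of all genes. That call was lost without ID8 replicate 1, 3 or 4 or ID8-FSHR replicate 4 (values over left-out libraries from -0.71 to -0.51) and in a fit of only the tumour groups. Relative to Cd79a plus Cd79b none of the 14 restricted members differed, beside 4.45% of all genes in either direction. Neither Blnk nor Rasgrp3 is restricted to B cells.

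Genes of the same pathway outside the module mostly fell too in the TMM-scaled fit. Of 48 other genes of B cell receptor signalling, 38 were lower, 6 higher and 4 not called in ID8, and 38 were lower, 4 higher and 6 not called in ID8-FSHR, with medians of -1.001 and -0.86, beside 31.4% and 30.6% of all genes lower. Relative to pan-leukocyte genes, 10 were lower and 22 higher in ID8 (median 0.20), beside 4.26% and 75.5% of all genes (median 1.17). In ID8-FSHR, 12 were lower and 21 higher (median 0.04), beside 6.28% and 69.2% of all genes (median 0.94). Ptprc and Rac2 are both among the 48 genes and among the reference genes, so these counts are not independent of the reference. Among the lowest was Siglecg, an inhibitory lectin of B1 cells, from 169 ± 17.8 to 19.3 ± 3.86 and 18.5 ± 4.77 CPM, 8.77-fold and 9.13-fold lower. Cd81, a broadly expressed tetraspanin, rose from 142 ± 7.98 to 314 ± 23.3 and 253 ± 24.7 CPM. Akt2 (0.41 and 0.48) and Fyn (0.36 and 0.69) rose in both groups, and Rela was among the largest rises in ID8 (0.40). Ptpn11 was the smallest of the 4 called rises in ID8-FSHR (0.30).

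Cd5, an inhibitory receptor of T cells and of B1a cells, was at 10.6, 19.2, 14.2 and 12.5 CPM in uninjected, 3.27, 3.02, 3.80 and 3.03 CPM in ID8 and 5.50, 11.8, 6.09 and 8.91 CPM in ID8-FSHR. It was 4.30-fold lower in ID8 than in uninjected and higher in ID8-FSHR than in ID8 (1.30, SE 0.25, edgeR adjusted p = 0.00509). The T cell sum moved the same way between the tumour groups, at 45.0 to 53.4 CPM in ID8 and 69.6 to 149.9 CPM in ID8-FSHR, and its part in the Cd5 value was not tested. Nfatc2, a calcium-regulated transcription factor, was higher in ID8-FSHR than in ID8 (0.51) and Cd81 was lower (-0.31). These 3 were the only calls among the 48 genes in that comparison. Malt1, a protease of NF-kB signalling, was low in both tumour groups and not called between them. Its mean fell from 192 ± 21.8 CPM (uninjected) to 49.1 ± 1.67 (ID8) and 56.3 ± 10.4 CPM (ID8-FSHR). The last of these was a 3.41-fold difference from uninjected.

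Levels can be compared between genes only per length, here as CPM per kb of merged exon in the GENCODE M21 annotation. In uninjected lavage the order was led by Cd79a at 321 ± 49.4 and Cd79b at 302 ± 32.6 CPM per kb (SD, n = 4), which did not differ beyond their spread. Next came Cd37, Pou2af1, Ms4a1, Lyn and Syk, between 117 and 136 CPM per kb and within each other's spread, apart from Cd37 and Syk. At the other end were Cr2 at 4.68 ± 1.39, Cd72 at 2.81 ± 1.14 and Vpreb3 at 1.38 ± 1.08 CPM per kb. In both tumour groups Lyn had the highest mean, at 57.4 ± 4.85 CPM per kb in ID8 and 73.5 ± 15.6 CPM per kb in ID8-FSHR, ahead of Cd79a at 46.2 ± 8.30 and 40.6 ± 9.18 CPM per kb, and in ID8 the pair did not differ beyond their spread.

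**Figure D5:**
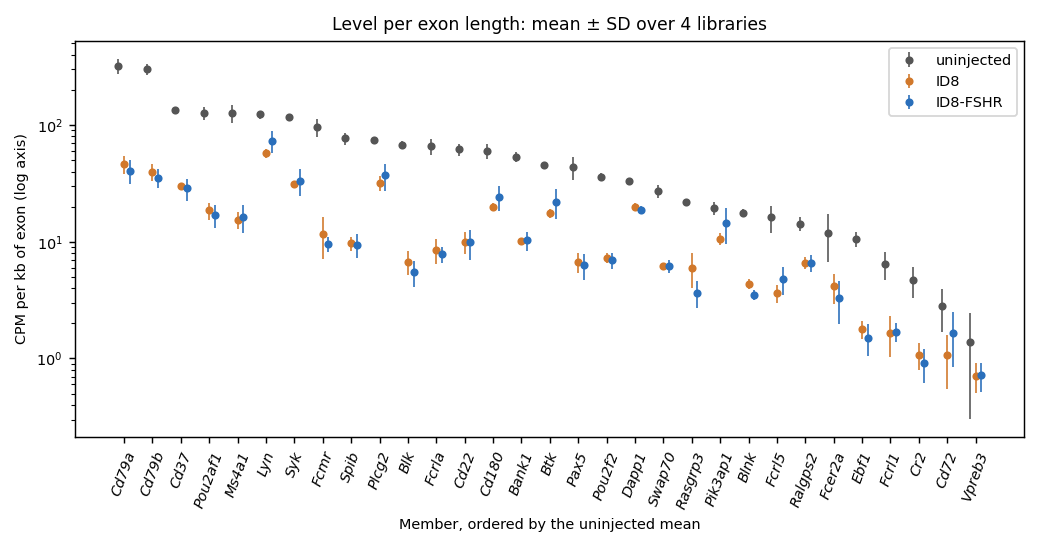
Level per exon length (CPM per kb, log axis) of each member, ordered by the uninjected mean, as mean ± SD over 4 libraries of each group. The receptor chains lead in uninjected at 321 and 302 CPM per kb, while Lyn leads in ID8 (57.4) and ID8-FSHR (73.5), and the gap between uninjected and tumour points narrows at Lyn, Dapp1, Pik3ap1 and Vpreb3.

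Variation among the libraries of a group was larger in ID8-FSHR. The median coefficient of variation (SD as a percentage of the mean) of the 31 members was 13.5% in uninjected, 16.6% in ID8 and 24.4% in ID8-FSHR. ID8-FSHR replicate 2 was the highest and replicate 4 the lowest of that group for several B cell genes, among them Cd79a, Cd79b, Ms4a1, Cd22, Blk, Bank1, Pax5 and Pou2af1. In uninjected the most variable members were Vpreb3, at 78.1%, and Fcer2a, at 43.8%.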

How the data were processed

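The authors deposited raw, whole-number counts of reads per gene, without normalization as far as labels and values show. The submitters' processing notes name bcl2fastq 2.20, STAR 2.7.9a, featureCounts (Subread 1.6.4) and GRCm38.p6; neither the strand setting nor the gene annotation is stated there. Members were matched by symbol and groups taken from the labels. All 12 libraries were fitted together in edgeR 4.0.16 under R 4.3.3 with its robust quasi-likelihood F test (group as the only term, TMM, default filter, 16915 of 55401 genes), with Benjamini-Hochberg adjustment over all tested genes and a threshold of 0.05. The fit was repeated with library sizes set to the summed counts of 10 pan-leukocyte genes or of Cd79a plus Cd79b. Only the TMM-scaled fit was run on simulated data, with 200 changed genes. That simulation does not cover a shift as broad as the one in these libraries. Alternatives were DESeq2 1.42.0, limma-voom (limma 3.58.1), other scalings, filters and samples, and a stricter threshold of 0.01. At these depths 3 counts correspond to 0.0444 to 0.0653 CPM. Libraries of a group all differed by more than sampling noise. The naming rule covered all members in every comparison (between the tumour groups the text gives a subset and the plot of fold changes all of them), and of 48 other pathway genes the 4 highest and 4 lowest called ones, of which some are not reported here. The members and all gene lists, classes included, were chosen with earlier results of these data known. Promoter windows run from 250 bases before to 50 after each RefSeq start.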

Additional observations from a re-analysis of the deposited data

Results flagged for a closer look

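Each member was examined in each group of 4 libraries for 1 library far from the other 3, by the gap to its nearest neighbour over the range of the group (Dixon's test). Of 93 such groups 4 had a library beyond the critical value, and chance flags about 1 in 20 groups. Ms4a1 was 72.2 CPM in ID8 replicate 2, below the 101.5 to 105 CPM of the other 3 ID8 libraries. In the same library Pou2af1 was 35.7 CPM, against 49.7 to 52.0 CPM in the others. Btk was 99.8 CPM in ID8-FSHR replicate 2, against 57.8 to 61.2 CPM, in the library that also had the highest pan-leukocyte sum of the tumour libraries. Dapp1 was 85.5 CPM in ID8-FSHR replicate 1, against 73.9 to 75.1 CPM. The call of each of these genes against uninjected held without the library named.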

How the results depend on the processing

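For the tumour groups against uninjected, the numbers of lower and higher members stayed within 1.5 times under every alternative of the TMM-scaled fit: 29 to 31 lower in ID8 and 28 to 29 in ID8-FSHR. Of 2844 values recomputed under alternatives, 2701 kept their direction and side of the threshold. For ID8-FSHR against ID8 the number of lower members was 0 without the filter, 0 with only the groups compared, 0 at an adjusted p under 0.01, 1 with the replicate block, and 0 to 2 when single libraries were left out; the number higher was 1 with DESeq2 (Lyn) and 0 to 3 when libraries were left out. Without ID8 replicate 3 the Fcmr difference turned from -0.29 to 0.00191 (range over left-out libraries -0.44 to 0.00191). Relative to pan-leukocyte genes, ID8-FSHR against ID8 gave 2 lower without the filter, 2 with the replicate block, 0 with only the groups compared, 7 with Ptprc alone as the reference and 0 to 8 with libraries left out. There ID8 gave 2 higher with only the groups compared, 2 with Ptprc alone, and 0 to 2 with libraries left out, as did ID8-FSHR (0 to 2). Relative to Cd79a plus Cd79b, ID8 gave 0 lower with the replicate block and with Ms4a1, Pax5, Pou2af1 and Spib as the reference, and 0 to 1 with libraries left out. The replicate block ended the calls of Blk and Bank1 in that comparison (-0.49 and 0.48), of Fcer2a in ID8-FSHR relative to pan-leukocyte genes (-0.99) and of Blnk between the tumour groups (-0.31). The causes were not tested. The references Ptprc and the 4-gene set were chosen after seeing the data. Replicate numbers did not pair the libraries: 2 of 12 same-number pairs had r over 0.1 (-0.217 to 0.352), and the block moved no count against uninjected in the TMM-scaled fit. With 4 libraries a group, Vpreb3 (14 counts at the lowest) and Cd72 were the least certain members.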
